A study of Mus musculus with 6 samples.

Results

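Genes for the ribosomal proteins of the cytosol, the ribosomal proteins of mitochondria and the factors that start and extend protein chains were followed in cultured mouse airway smooth muscle cells. They were chosen by symbol: names that begin with Rpl, Rps, Mrpl or Mrps, with Eif1 to Eif6 or with Eef1 or Eef2, without the S6 kinases and Eif2s3y. Of 5755 symbols on the array 79 met this rule, and 78 had enough values to be fitted: 20 cytosolic ribosomal proteins, 35 mitochondrial ones and 23 initiation and elongation factors. The remaining symbol, Rpsa, had a value (0.28) on 1 of the 6 arrays. The rule takes in genes that act on translation without being part of the ribosome or a classical factor, such as the eIF2 kinases.

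The cells had been grown from tracheal explants of transgenic mice that overexpress the beta2-adrenergic receptor (beta2AR; called 2AR-OE in the labels) and of nontransgenic (NTG) mice, in medium that held 20% fetal calf serum, and RNA was taken at passages 8 to 10. Per the labels over 90% of such cultures stained for smooth muscle actin; each culture began with the pieces of a single trachea, and the sources used here do not give the promoter of the transgene, the strain or the age of the mice. Each of 6 two-colour arrays set RNA of both genotypes side by side, with transgenic RNA in Cy5 on 1A, 1B, 2A and 2B and in Cy3 on 1C and 2C. Arrays 1A, 1B and 1C are called set 1 here, and 2A, 2B and 2C set 2. Neither number nor letter is explained in the labels, nor whether separate cultures stand behind the arrays of a set. A p-value therefore refers to variation among arrays, part of which may be technical.

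All values are log2 ratios. The likely direction is transgenic over nontransgenic: on the 4 arrays of the commoner orientation the transgenic RNA was in channel 1. The columns of 1C and 2C were taken as already turned to match. The labels state neither. If the direction is the reverse, every sign turns. If 1C and 2C were not turned, the transgenic effect is the term called dye here, and its values stand with the dye comparison. A ratio gives no level, so members are not ranked by abundance. Between 8495 and 8555 probes had a value on each array, array medians lay within 0.001 of 0, and array 1C scattered most (median absolute deviation over rows 0.531, against 0.273 to 0.404 on the others).

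Ribosomes of the cytosol join a large (Rpl) and a small (Rps) subunit and translate the messages of the nucleus. Mitochondria keep ribosomes of their own, whose proteins (Mrpl, Mrps) are encoded in the nucleus and whose products are subunits of the respiratory chain. Initiation needs eIF2, which carries the initiator tRNA, its exchange factor eIF2B, the scaffold eIF3 and the cap-binding eIF4 group. The eIF2 kinases slow initiation under stress, and the eEF1 complex and eEF2 drive elongation. Cyclic AMP, the second messenger of the receptor, bears on growth and protein synthesis in smooth muscle, but the arrays measured RNA and not translation. In such RNA from whole cultures, fewer cells of a type and less RNA per cell cannot be told apart.

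Many messages of ribosomal proteins and elongation factors begin with a terminal oligopyrimidine tract, a C followed by an unbroken run of C and T, through which growth signals set their translation together. RefSeq start windows (GRCm38.p6, 15 bases on either side of the annotated start) are shown to let the members be read against that feature. Capitals mark the longest run of a C and at least 4 further C or T on the strand that reads like the RNA. The first 4 windows belong to cytosolic members with a large difference between the sets, the next 3 to cytosolic members without one, and the last 4 to genes that passed the test between genotypes or, for Eif2s3x, came closest to it among the eIF2 subunits.
Rpl15 (chr14:18270972-18271001, minus strand): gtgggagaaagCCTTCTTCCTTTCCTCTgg
Rpl35a (chr16:33056467-33056496, plus strand): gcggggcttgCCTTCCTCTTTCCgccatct
Rplp2 (chr7:141447636-141447665, plus strand): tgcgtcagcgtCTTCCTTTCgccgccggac
Rpl4 (chr9:64173372-64173401, plus strand): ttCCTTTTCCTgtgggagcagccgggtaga
Rpl38 (chr11:114668565-114668594, plus strand): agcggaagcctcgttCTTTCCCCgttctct
Rpl27a (chr7:109519180-109519209, plus strand): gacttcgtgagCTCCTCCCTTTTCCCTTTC
Rps6 (chr4:86857353-86857382, minus strand): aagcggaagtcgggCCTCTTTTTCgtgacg
Eif2s3x (chrX:94212637-94212666, minus strand): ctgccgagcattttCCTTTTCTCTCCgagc
Eif2ak4 (chr2:118388602-118388631, plus strand): gactcgaggccccgCCCTCagttcggtcac
Eif3j1 (chr2:122028565-122028594, plus strand): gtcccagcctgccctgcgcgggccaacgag
Mrpl55 (chr11:59202471-59202500, plus strand): cgccctgcgctccgtggcgtcatcaccgcg

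Such a run lay in at least 1 window of 10 of the 14 cytosolic ribosomal protein genes in the promoter table (71.4%), of 10 of 21 factor genes (47.6%) and of 10 of 30 mitochondrial ones (33.3%), against 40.3% of the 27025 genes of that table. Runs of 7 or more bases were found in 64.3%, 23.8% and 6.67% of the 3 groups and in 16.4% of all genes. The runs of Rpl15, Rpl35a and Rplp2 reach over the annotated start, and those of Rpl38, Rpl27a and Rps6 do so or begin at it, while that of Rpl4 ends before it. Rpl35a has 3 annotated starts in the table, and only the window shown holds a run; Eif2ak4 has 2, and the window not shown holds a run of 7 bases. Runs of 7 or more bases lay in 5 of 8 cytosolic members with a set difference below -0.5 and in 4 of the other 6. The cytosolic windows shown all hold a run, whereas those of Rpl23, Rpl9, Rps15 and Rpl7l1, not shown, hold none. A match is a description of the annotated start, which can lie off the start used in these cells.

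Between genotypes few genes of the translation machinery passed the test. By limma with Benjamini-Hochberg adjustment over 6807 rows, Eif2ak4 and Mrpl55 rose and Eif3j1 fell, which is 3 of 78 members against 7.11% of all rows (4.03% higher and 3.09% lower). The members' share was thus not above the background. The median fitted ratio was 0.155 for cytosolic ribosomal proteins, 0.020 for mitochondrial ones and -0.043 for factors, beside 0.002 for all rows. Ratios were positive for 16 of 20, 20 of 35 and 10 of 23 members of these groups, against 50.3% of all rows. The cytosolic median was 0.007 without array 1C, 0.077 without 1A, 0.092 without 1B and 0.027 with arrays weighted by their scatter, and it was 0.401 in set 1 alone and -0.145 in set 2 alone. That of the factors was 0.061 without 2C, and that of the mitochondrial group -0.027 without 1C.

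**Figure D1:**
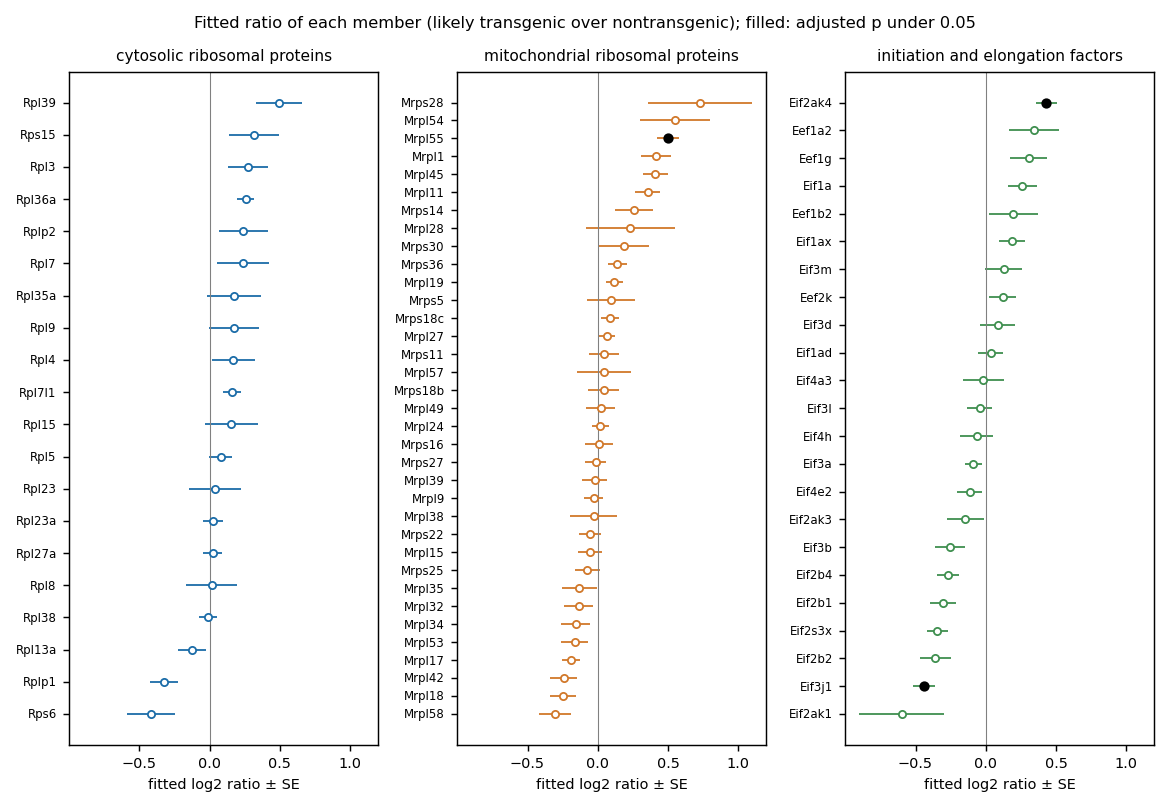
Fitted log2 ratio (likely transgenic over nontransgenic) of each of the 78 members with its standard error over 6 arrays, by group. Filled points mark the 3 genes past the adjusted threshold of 0.05: Mrpl55, Eif2ak4 and Eif3j1; most of the other members lie within 0.4 of 0.

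Eif2ak4 encodes GCN2, the eIF2 kinase that answers to amino acid shortage. Its ratio was 0.26 on 1A, 0.42 on 1B, 0.73 on 1C, 0.22 on 2A, 0.32 on 2B and 0.38 on 2C. All 6 arrays were positive, with 1C highest. The fit gave 0.43 ± 0.08 (SE, n = 6; 1.35-fold; adjusted p = 0.028).

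Eif3j1 encodes a loosely bound subunit of the eIF3 scaffold. Its ratio was -0.10 on 1A, 0.01 on 1B, -0.91 on 1C, -0.19 on 2A, -0.25 on 2B and -0.57 on 2C. The lowest values were those of the arrays with transgenic RNA in Cy3, and 1B lay at about 0. The fit gave -0.44 ± 0.08 (adjusted p = 0.0292), and with the 4 Cy5 arrays alone it was -0.135 (adjusted p = 0.25).

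Mrpl55 encodes a protein of the large mitochondrial subunit. Its ratio was 0.70 on 1A, 0.29 on 1B, 0.48 on 1C, 0.59 on 2A, 0.57 on 2B and 0.44 on 2C, positive throughout and alike in both sets. The fit gave 0.50 ± 0.08 (1.42-fold; adjusted p = 0.0193). Its 2 probes differed in size: 0.76 ± 0.12 (adjusted p = 0.021) and 0.24 ± 0.06 (adjusted p = 0.0771) when each was tested singly. None of these 3 genes passed limma when the set entered as a random block, a replicate block for arrays of like number (adjusted p = 0.0832 for Eif2ak4, 0.107 for Eif3j1 and 0.0692 for Mrpl55). Leaving out any of 1A, 1B, 1C, 2A and 2B ended the calls of Eif2ak4 (adjusted p = 0.0718 to 0.0962) and Eif3j1 (0.0647 to 0.104), and leaving out 1A, 1C, 2A or 2B that of Mrpl55 (0.0531 to 0.0784). In these fits calls also fell over all rows, to 97 to 150 higher and 66 to 100 lower, from 274 and 210. Losing a call was thus not particular to these genes.

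Cytosolic ribosomal proteins had mostly positive but scattered ratios, and 0 of 20 passed limma's adjusted threshold; 4 had an unadjusted p under 0.05, 2 in each direction, against 14.1% of all rows higher and 13.6% lower at that level. Rpl39, a small protein at the exit tunnel, was highest at 0.49 ± 0.17 (adjusted p = 0.127), with 1.25, 0.82 and 0.63 on arrays 1A to 1C and 0.32, 0.37 and -0.03 on arrays 2A to 2C. Rps15 followed at 0.32 ± 0.18, Rpl3 at 0.28 ± 0.14, Rpl36a at 0.26 ± 0.06 and Rplp2, of the acidic stalk, at 0.24 ± 0.17. Rpl36a came closest to the threshold (adjusted p = 0.0668), positive on 6 of 6 arrays with values from 0.09 on 1C to 0.47 on 1A. At the lower end stood Rps6, the target of the S6 kinases, at -0.42 ± 0.17 and the stalk protein Rplp1 at -0.33 ± 0.10 (adjusted p = 0.176 and 0.106). Rplp1 was negative on 6 of 6 arrays, while Rps6 ran from -1.24 on 2B to 0.40 on 2C. Rpl13a (-0.13 ± 0.10), Rpl38 (-0.01 ± 0.06) and Rpl8 (0.01 ± 0.18) completed the lower end. The other 10 cytosolic members, Rpl27a, Rpl23a, Rpl23, Rpl5, Rpl15, Rpl7l1, Rpl4, Rpl9, Rpl35a and Rpl7, lay between 0.02 and 0.24.

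Mitochondrial ribosomal proteins centred near 0, and 1 of 35 passed, Mrpl55. The highest ratio, of the small subunit protein Mrps28 (0.73 ± 0.37), rested on array 1C: it was 2.89 there and between -0.18 and 0.27 on the other 5 arrays. Mrpl54 (0.55 ± 0.25) was high on 1A, at 1.75, and at 0.06 to 0.73 elsewhere. Mrpl1, Mrpl45 and Mrpl11, all of the large subunit, were positive on 6 of 6 arrays at 0.42 ± 0.10, 0.41 ± 0.09 and 0.36 ± 0.09, and just missed the threshold (adjusted p = 0.0717, 0.0539 and 0.0697). The lowest ratios were those of Mrpl58, a peptidyl-tRNA hydrolase built into the large subunit (-0.31 ± 0.12), Mrpl18 (-0.25 ± 0.09), Mrpl42 (-0.24 ± 0.10), Mrpl17 (-0.19 ± 0.07) and Mrpl53 (-0.17 ± 0.09). Mrpl58 was between -0.97 and -0.50 on the 4 Cy5 arrays, at -0.09 on 1C and at 0.52 on 2C. Of the 12 members with an Mrps symbol 9 had positive ratios, and Mrps36 had the smallest p among them (0.14 ± 0.07, adjusted p = 0.242). These members were grouped by symbol alone. A symbol need not give the place of each protein, nor make each one, Mrps36 among them, a part of the ribosome.

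All 4 measured subunits of the initiation factor eIF2 and its exchange factor eIF2B had negative ratios. Their dye terms were all positive (median 0.207), so all 4 ratios would be positive if 1C and 2C were not turned. Eif2s3x, the gamma subunit that binds GTP and the initiator tRNA, was at -0.34 ± 0.08 (adjusted p = 0.0564) with -0.28, -0.40 and -0.54 on 1A to 1C and -0.10, -0.02 and -0.43 on 2A to 2C. It was negative on 6 of 6 arrays, and array 2B lay nearest to 0. The eIF2B subunits Eif2b2 (-0.36 ± 0.11), Eif2b1 (-0.31 ± 0.09) and Eif2b4 (-0.27 ± 0.08) had adjusted p of 0.109, 0.0988 and 0.0958. The unadjusted p was under 0.05 in all 4 (13.6% of all rows were lower at that level), and 0 of 4 passed limma's adjusted threshold. The ratios of Eif2b1 and Eif2b4 lay near 0 on the Cy5 arrays (-0.14 to 0.15 and -0.09 to 0.11). On 1C and 2C those of Eif2b1 were -0.84 and -0.39, and those of Eif2b4 were -0.73 and -0.35. In both genes the 2 swapped arrays thus lay below the other 4.

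Among the eIF2 kinases Eif2ak1, the heme-regulated kinase, had the lowest ratio of all members (-0.60 ± 0.30, adjusted p = 0.249), set by array 1C at -2.47 against -0.12 to 0.19 on the other 5. One of its 3 probes had a value on 1C alone, at the floor of the table (a ratio of 0.01); the other 2 probes gave -0.14 ± 0.08 and -0.02 ± 0.07. Eif2ak3, the kinase of the endoplasmic reticulum known as PERK, was at -0.15 ± 0.13. The eIF3 subunits other than Eif3j1 ranged from -0.25 ± 0.11 for Eif3b to 0.13 ± 0.13 for Eif3m. The eIF4 members Eif4e2, a cap-binding homologue, Eif4h, a helicase cofactor, and Eif4a3, of the exon junction complex, lay at -0.12 ± 0.09, -0.07 ± 0.12 and -0.02 ± 0.15.

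Members with a symbol that begins with Eif1, Eef1 or Eef2 had positive fitted ratios. The eIF1 members Eif1a, Eif1ax and Eif1ad were at 0.26 ± 0.10, 0.19 ± 0.09 and 0.04 ± 0.09. Eef1a2, which delivers aminoacyl-tRNA, Eef1g and Eef1b2, of its exchange complex, were at 0.34 ± 0.18, 0.31 ± 0.13 and 0.20 ± 0.17 (adjusted p = 0.266, 0.197 and 0.478). Eef2k, the kinase that inactivates eEF2, was at 0.12 ± 0.10 (adjusted p = 0.453), but its probes differed: one rose (0.365 ± 0.07, adjusted p = 0.0371 when tested singly) and the other gave -0.125 ± 0.14. None of the elongation genes passed as the mean of its probes.

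The ratios of the cytosolic ribosomal proteins depended on the set of arrays. Their median was 0.600, 0.622 and 0.249 on 1A, 1B and 1C, and -0.052, -0.017 and -0.267 on 2A, 2B and 2C; every array of set 1 lay above every array of set 2. The same medians for mitochondrial ribosomal proteins were 0.249, 0.217 and 0.071 against -0.039, 0.003 and -0.112, and for factors 0.144, 0.108 and 0.053 against -0.079, -0.021 and -0.208. The order of the sets was thus shared, and with probes averaged per gene the distance was widest for the cytosolic group. The cytosolic median exceeded the mitochondrial one by 0.352, 0.405 and 0.179 on the arrays of set 1 and by -0.013, -0.019 and -0.154 on those of set 2, with a mean of 0.125 ± 0.224 (SD, n = 6). Over all 6 arrays this gap was smaller than its spread. The mitochondrial median exceeded that of the factors on 6 of 6 arrays, by 0.018 to 0.109 (mean 0.065 ± 0.042), and the cytosolic one by a mean of 0.190 ± 0.245.

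**Figure D2:**
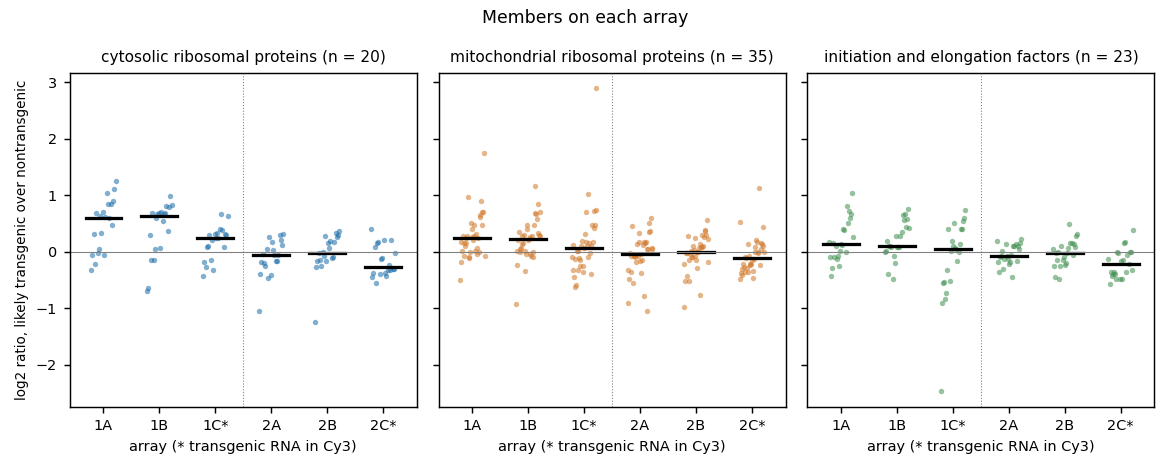
Log2 ratio of each member on each array, by group; black bars are medians and stars mark the arrays with transgenic RNA in Cy3. The bars of the cytosolic group stand at 0.249 to 0.622 in set 1 and at -0.267 to -0.017 in set 2, and those of the other groups move the same way over a shorter range.

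A further term of the fit gave the difference of set 2 minus set 1. Its median was -0.624 for cytosolic ribosomal proteins, -0.237 for mitochondrial ones and -0.263 for factors, beside -0.059 for all rows. With each probe taken singly the cytosolic median was -0.232, close to -0.231 and -0.263 for the other groups. No cytosolic probe lay between -0.609 (Rpl3) and -0.278 (a probe of Rplp1), so this median fell beside a gap and describes few of the probes. By limma 0 members passed after adjustment, as did 0% of all rows, and the smallest adjusted p was 0.0716 in both. At an unadjusted p under 0.05, 35 of 78 members were lower in set 2 (12 of 20 cytosolic, 13 of 35 mitochondrial and 10 of 23 factors), against 13.3% of all rows. In the other direction 2 of 78 members had such a p, Mrpl32 and Eif4e2, against 10.4% of all rows. The 3 arrays of set 1 all lay above the 3 arrays of set 2 for 28 of 78 members, 10 of them cytosolic, against 13.7% of all rows.

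The cytosolic members did not all differ alike between the sets. For 11 of them, called the block here, Rpl35a, Rpl7, Rpl8, Rpl15, Rpl23, Rps15, Rplp2, Rpl9, Rpl39, Rpl4 and Rpl3, the difference lay between -0.835 and -0.609; this bound of -0.5 was drawn after the values were seen and carries no test. All 11 had 1 probe each, whereas 5 of the other 9 were means of 2 to 4 probes that could differ widely, so the division depends in part on averaging. Rpl35a stood at 0.85, 0.66 and 0.40 on 1A to 1C and at -0.16, -0.11 and -0.33 on 2A to 2C (difference -0.84 ± 0.10, adjusted p = 0.0716). Rpl7 stood at 0.60, 0.68 and 0.67 against -0.16, -0.10 and -0.24 (-0.82 ± 0.09, adjusted p = 0.0716). Both were clearly above 0 throughout set 1 and below 0 throughout set 2. Rpl8, in the core of the large subunit, stood at 0.69, 0.69 and 0.10 against -0.20, -0.15 and -0.56 (-0.80 ± 0.09), so that its ratio over both sets came to 0.01. Over the block the values ran from 0.60 to 1.25 on 1A, from 0.55 to 0.99 on 1B and from 0.10 to 0.67 on 1C, and from -0.46 to 0.32 on 2A, from -0.16 to 0.37 on 2B and from -0.56 to -0.03 on 2C.

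The other 9 cytosolic members lay nearer to 0. Rpl13a (-0.35 ± 0.11) and Rpl27a (-0.16 ± 0.08) had smaller differences, and Rps6, Rpl5, Rplp1, Rpl36a, Rpl23a, Rpl7l1 and Rpl38 lay between -0.15 and 0.10. That of Rps6 (-0.15 ± 0.35) was imprecise: it was -0.63 between the Cy5 arrays of the sets and 0.82 between 2C and 1C. Rpl38 held within 0.22 of 0 on every array. Rpl7l1 is a paralogue of Rpl7 that works in ribosome assembly, and its difference was 0.09 ± 0.09. The members nearest to the bound were Rpl3 inside it (-0.609) and Rpl13a outside it (-0.351).

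**Figure D3:**
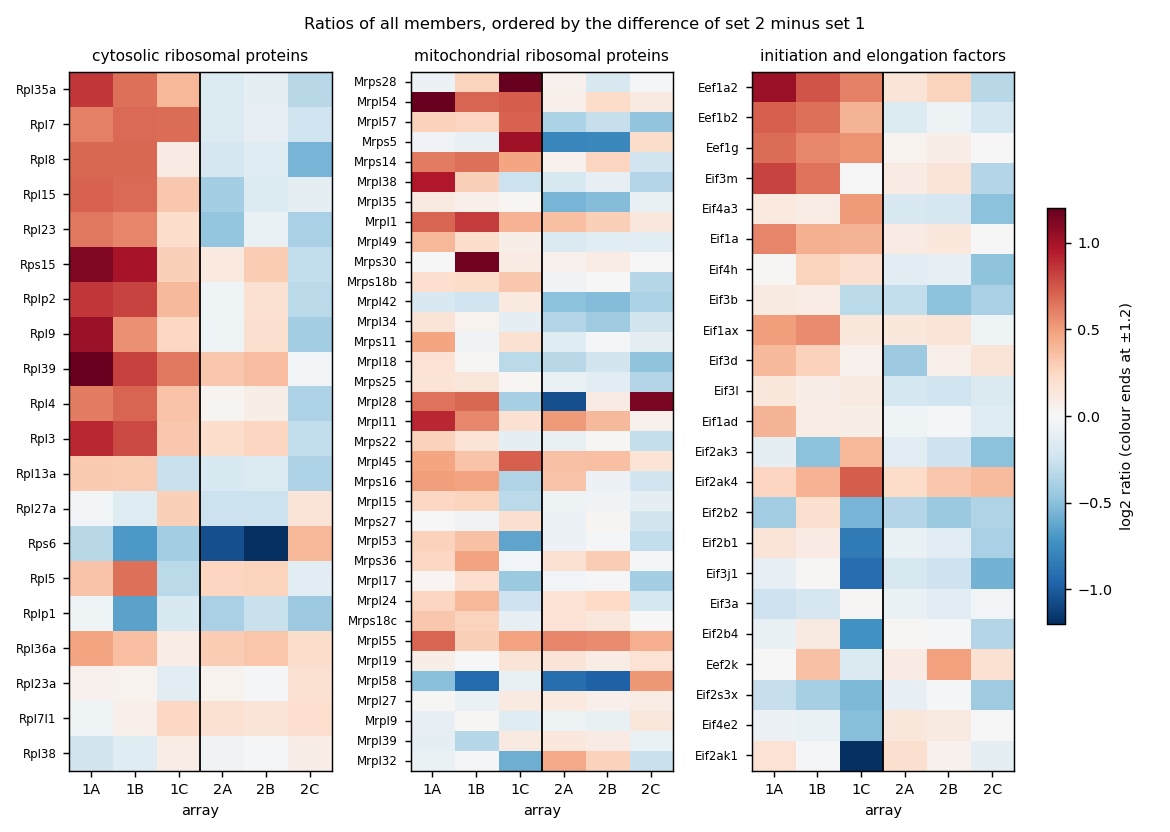
Log2 ratio of every member (rows) on every array (columns), ordered within each group by the difference of set 2 minus set 1; red is above 0 and blue below, with colour ending at 1.2 on either side. The top 11 cytosolic rows and the top 3 factor rows, Eef1a2, Eef1b2 and Eef1g, are red on 1A and 1B. They are red or pale on 1C and pale or blue on 2A, 2B and 2C. In Rps15 the value on 1C (0.29) lies just below that on 2B (0.30).

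The 3 eEF1 subunits were also lower in set 2 at an unadjusted p under 0.05. Eef1a2 was 1.04, 0.75 and 0.60 on 1A to 1C and 0.15, 0.27 and -0.33 on 2A to 2C (difference -0.77 ± 0.12, adjusted p = 0.0724). Eef1b2 was 0.72, 0.66 and 0.41 against -0.16, -0.06 and -0.21 (-0.74 ± 0.09, adjusted p = 0.0716), and its 2 probes gave -0.72 and -0.77. Eef1g was 0.67, 0.58 and 0.54 against 0.04, 0.08 and 0.00 (-0.55 ± 0.08, adjusted p = 0.0724). In each of the 3 genes all arrays of set 1 lay above all arrays of set 2. The next factors were Eif3m (-0.53 ± 0.10), Eif4a3 (-0.53 ± 0.17) and Eif1a (-0.40 ± 0.09), whereas the 4 eIF2 and eIF2B subunits had a median difference of 0.056 and Eef2k one of 0.20 ± 0.17.

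Of the mitochondrial members Mrps5, Mrpl57 and Mrps14 had the smallest p of this comparison, at -0.74 ± 0.08, -0.79 ± 0.15 and -0.56 ± 0.11 (adjusted p = 0.0716, 0.0777 and 0.0772). The Mrps5 value came mainly from 1 of its 2 probes (-1.26 ± 0.22 against -0.23 ± 0.18). Mrps28 had the largest difference (-1.08 ± 0.62), again through array 1C. The difference was negative for all 12 members with an Mrps symbol and for 16 of 23 with an Mrpl symbol, against 57.0% of all rows. For Mrpl55, which passed between genotypes, it was 0.04 ± 0.14.

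The set difference could be taken in each dye orientation separately. Over the 11 cytosolic members of the block it was -0.98 to -0.61 between arrays 2A and 2B and arrays 1A and 1B, and -0.91 to -0.43 between 2C and 1C; these members were chosen for their difference on the same arrays. Over all 20 cytosolic members it was negative in both orientations for 13, with medians of -0.620 and -0.509, and over all rows the medians were -0.042 and -0.021. Both differences were negative for 44 of 78 members and both positive for 6; over all rows both were negative in 33.1% and both positive in 26.5%. A constant dye bias of a probe cancels in these differences. If the columns of 1C and 2C were not turned, the orientations would oppose each other and the medians of the 3 groups would be -0.230, -0.114 and -0.137.

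**Figure D4:**
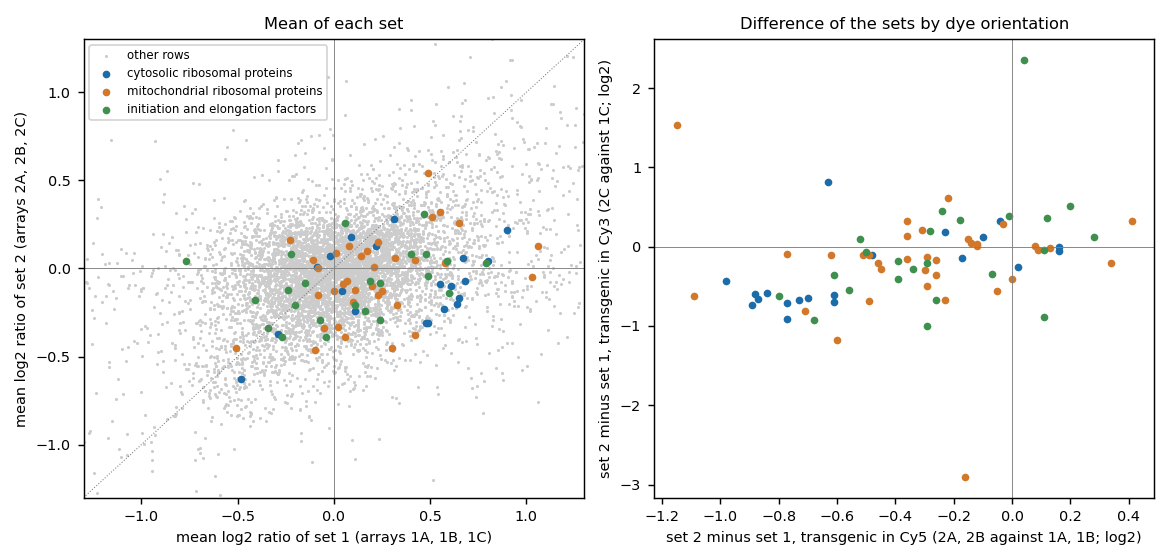
Left, mean log2 ratio of set 1 (x) against set 2 (y) for each member by group and for all other rows in grey (axes end at 1.3, and the dotted line marks equal means); most cytosolic members lie right of the line. Right, the difference of set 2 minus set 1 (log2) on arrays with transgenic RNA in Cy5 (x) and in Cy3 (y); the 11 cytosolic members of the block lie at -0.98 to -0.61 on x and -0.91 to -0.43 on y.

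The dye comparison asked which ratios differed with the dye that the transgenic RNA carried, and it equals the transgenic effect if the swapped columns were not turned. Of 78 members 0 passed limma's adjusted threshold (0.0147% of all rows did), and 13 had an unadjusted p under 0.05, against 18.2% of rows. Dye terms were positive, that is, higher with transgenic RNA in Cy5, for 54 of 78 members, with medians of 0.134, 0.054 and 0.100 for cytosolic, mitochondrial and factor genes beside 0.000 for all rows. The smallest adjusted p was that of Mrpl58 (-0.52 ± 0.12, adjusted p = 0.182). For Eif3j1 the dye term was 0.30 ± 0.08, for Eif2ak4 -0.13 ± 0.08 and for Mrpl55 0.04 ± 0.08, so that under this reading Eif3j1 would stand on the other side of 0, as would Eif2ak4, and Mrpl55 near it.

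Probes of a gene did not always agree. Of 19 members with at least 2 fitted probes 7 had all of them on the same side of 0. The widest gap was in Rpl27a, whose 4 probes gave 0.61 ± 0.30, 0.03 ± 0.08, -0.02 ± 0.10 and -0.53 ± 0.19. In Rpl13a one probe fell (-0.55 ± 0.09, adjusted p = 0.0259 when tested singly) and the other gave 0.30 ± 0.18. The second probe of Rpl13a had a set difference of -0.778 (0.90, 0.76 and 0.53 on 1A to 1C against -0.01, 0.06 and -0.20 on 2A to 2C) and the first one of 0.076. The probes of Eif1a (0.27 and 0.25) and Eef1b2 (0.17 and 0.23) were close. Ribosomal protein genes have many near-identical pseudogenes, and probe sequences were not used here, so the share of signal that each probe takes from such copies was not tested.

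Other genes of the pathway came from lists written for this work. Fau, which encodes a small subunit protein fused to a ubiquitin-like one and lies outside the symbol rule, also differed between the sets, from values above the block's on every array: 1.49, 1.29 and 1.00 on 1A to 1C against 0.41, 0.49 and 0.28 on 2A to 2C (ratio 0.78 ± 0.20, adjusted p = 0.0731; set difference -0.87, adjusted p = 0.0716). It was positive on all 6 arrays, and the sets did not overlap. Naca and Btf3, the subunits of the nascent chain complex at the ribosome exit, had set differences of -0.78 and -0.76. They belong to a list of 8 genes of nascent chain binding and signal recognition with a median ratio of -0.047 and a median set difference of -0.397, of which 0 passed between genotypes.

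Of 21 measured ribosome biogenesis genes, Nop58 (-0.45 ± 0.08), a core protein of box C/D particles, Ddx21 (-0.70 ± 0.13), a nucleolar helicase, and Wdr75 (-0.44 ± 0.09), of the small subunit processome, fell and 0 rose (adjusted p = 0.0254, 0.0326 and 0.0467), against 3.09% of all rows lower and 4.03% higher, and the list median was -0.028 beside 0.002 for all rows. Of 19 genes of mTOR, MYC and translation control, Pdpk1, the kinase that activates AKT and S6 kinases, rose (0.86 ± 0.14, adjusted p = 0.0218), and the median was -0.017. Of 9 cytosolic tRNA synthetases Tars, for threonine, fell (-0.68 ± 0.10, adjusted p = 0.0168; median -0.143). Tars was at -1.4 on 1C, -0.81 on 2C and -0.39 to -0.11 on the Cy5 arrays. Ddx21 was also lowest on 1C (-1.46) and 2C (-0.65). Nop58 was lower on the Cy5 arrays (-0.9 to -0.52) than on 1C (-0.13) and 2C (-0.27), and Wdr75 was lowest on 2B (-0.87). Pdpk1 was highest on 1C (1.35) and lowest on 2C (0.47). None of 7 release, recycling and poly(A) factors (median -0.259) and 5 mitochondrial translation factors (median -0.041) passed by limma. The median set differences of these 5 lists ran from -0.266 for the synthetases to -0.082 for the mTOR list. They were smaller than the -0.624 of the cytosolic ribosomal proteins with probes averaged per gene. With each probe taken singly, the cytosolic median given above lay within the range of these lists. The list medians still rest on probes averaged per gene, so the measures are unlike and no conclusion is drawn from this.

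Markers of cell types were read as ratios only, which cannot show presence or absence. Cnn1, of smooth muscle, rose (0.59 ± 0.11) among 3 measured markers of that type, whose median was -0.053 and whose set difference had a median of -0.125. Of markers of other types, 6 fibroblast genes had a median ratio of 0.757 (-0.02 to 2.73; Thy1 and Mfap5 rose), 3 epithelial genes 0.074 (Cdh1 rose), 5 leukocyte genes -0.166, 4 cartilage genes -0.270 (Col11a1 fell) and 4 endothelial genes -0.445, of which Tek lacked a value on 2B and 2C. Their set differences had medians of 0.162, -0.047, 0.067, 0.173 and 0.433. In the endothelial list Cdh5 (set difference 1.08) and Eng (0.92) lay opposite to the ribosomal proteins, whereas Tie1 was at -0.05 and Tek, with 1 value in set 2, at -4.38. The part of these genes in the set differences was not tested, nor was that of the fibroblast genes in the ratios between genotypes.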

How the data were processed

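RNA was reverse transcribed, labelled with Cy3 or Cy5 and hybridised competitively, per the labels' protocols; no source used here names the scanner, background correction, normalization or filters. The deposited table holds a log2 ratio for each of 8734 probes on each array. Symbols came from the platform annotation: 7540 probes had 1 symbol, 14 several and 1180 none; 105 probes named members, and 4 further probes that name a member together with another gene were left out. Probes of a symbol were averaged per array, other probes were kept singly, and a row was fitted where 4 or more arrays had values, with each orientation among them, (6807; 5644 with a symbol).

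Models were fitted in limma 3.58.1 under R 4.3.3 (lmFit, then eBayes) with a transgenic and a dye coefficient, and with a set coefficient for the set comparison. Adjusted p-values are Benjamini-Hochberg over all rows, with 0.05 as threshold; errors are standard errors over n = 6 arrays. Spot intensities were not used, so precision was measured only by each row's scatter among arrays, as moderated over rows by eBayes.

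The members, lists and tests were chosen with earlier results of these data known. Named are members past the threshold, the 5 highest and 5 lowest of each group, those at the floor, the 3 widest probe gaps, the smallest p of each subgroup and list genes past the threshold; the other members, those of the set comparison among them, were named after their values were seen. Start windows and coordinates are RefSeq's for GRCm38.p6, matched by Entrez ID (65 of 78 members matched). Tried alternatives were the floor, blocks, dye term, arrays, weights, scaling, centring, probes, missing values and the sign of the swapped arrays.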

Additional observations from a re-analysis of the deposited data

Results flagged for a closer look

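Single arrays stood far from the other 5 for 4 of the 34 named members. Chance alone marks about 1 in 20 such sets of values. That rate does not apply here, since members were named in part for extreme ratios or a floor value, which a single array can produce. No like count was taken over all rows. Eif2ak1 was -2.47 on 1C against -0.12 to 0.19, through a probe at the floor. Mrps28 was 2.89 on 1C against -0.18 to 0.27. Eif4e2 was -0.51 on 1C against -0.08 to 0.14. Eif2b2 was 0.19 on 1B against -0.56 to -0.35.

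All arrays of set 1 were above 0 and all of set 2 below 0 for Eef1b2 (difference of set 2 minus set 1 -0.74) and Rpl8 (-0.80), and for the array medians of the cytosolic ribosomal proteins (-0.60) and of the factors (-0.20). For the genes limma's set term gave an adjusted p of 0.0716 each; for the medians the difference was not tested. This opposition held for 14 of 78 members and for 7.07% of all rows.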

How the results depend on the processing

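The members called between genotypes were 2 higher and 1 lower. With a random replicate block for the set (correlation estimated at 0.295), 0 and 0 were called by limma (121 and 76 of all rows). It was also 0 and 0 with set means (0 and 0 of all rows) and with the swapped arrays' sign turned (1 and 0 of all rows). These last settings left almost no row called, so they say nothing particular about the members. With array weights it was 1 and 0 (94 and 77 of all rows), and without the dye term 4 and 0 (302 and 158 of all rows). With probes tested singly it was 4 and 2 (338 and 266 of 8500 probes), and on the Cy5 arrays alone 6 and 2 (512 and 537 of all rows). Arrays scaled to the same spread gave 4 higher and 1 lower (349 and 258 of all rows). The set as a fixed term gave 15 and 4 (615 and 553 of all rows). Added after seeing the data, set 1 alone gave 14 higher and 1 lower (694 and 363 of 6762 rows) and set 2 alone gave 1 higher and 9 lower (395 and 512 of 6804 rows). Leaving out 1 array gave 0 to 4 higher and 0 to 6 lower. The upper ends were without 2C, when 1038 and 649 of all rows passed. Without any of the other arrays 97 to 150 of all rows were higher and 66 to 100 lower, against 274 and 210 in the main fit. For dye, 5 members and 990 of all rows were called without 2C, against 0 members otherwise.

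The factors' median ratio moved to 0.100 with the sign turned and to 0.110 in set 1 alone. With 1 array left out, the count lower in set 2 at an unadjusted p under 0.05 ranged from 20 (without 2B) and 21 (without 2A) to 37 (without 1C or 2C). Over all rows the counts of these fits were 564, 527 and 1243 or 1249. With the sign turned it was 5 members and 364 of all rows. The median set difference of the cytosolic group was -0.232 with probes tested singly and -0.230 with the sign turned, which also gave -0.114 and -0.137 for the mitochondrial and factor groups. The sign turned reversed Eif2ak4 (-0.125) and Eif3j1 (0.302), and in set 2 alone Rpl8 was called at -0.370. Of 31 named members not called, 19 changed sign and 21 were called under some alternative, with no like count taken over all rows. For all of these the cause was not tested.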
